A study of Mus musculus with 16 samples.

Results

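CD300 and Siglec receptors are surface proteins of myeloid cells that were followed here through the mRNA of 7 genes, Cd300a, Cd300lf, Cd300lb, Cd300ld, Cd33, Siglece and Siglec1. They were taken by name from a deposited table of 20490 genes, and all 7 were among the 10365 genes that reached at least 1 RPKM (reads per kilobase of transcript, scaled to the library's depth) in 2 or more libraries and were tested. The cells were RAW264.7, mouse macrophages that can turn into osteoclasts. They attached for 12 h and then received phosphate-buffered saline (PBS), extracellular vesicles (EV, 30 µg/mL) of PC3M, a metastatic human prostate cancer line, the osteoclast-inducing cytokine RANKL (recombinant, as a GST fusion, 10 ng/mL), or both agents (EV+RANKL), for 48 h or 72 h. Each of the 8 groups had 2 libraries (16 in all, n = 2 per group throughout). No knockout, transgene or further agent is named, and all groups are 1 cell line. The labels do not say whether a group's libraries are separate cultures. The p-values therefore reflect the spread among these libraries alone, and that spread may be technical.

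CD300 receptors carry 1 immunoglobulin domain that binds lipids of dying cells and of membranes, and Siglecs bind sialic acid, the sugar that caps many glycoproteins. Inhibitory members of both families recruit phosphatases through tyrosine motifs in their tails (ITIMs), while activating members couple to adaptors such as DAP12 and the Fc receptor gamma chain, the same adaptors that carry costimulatory signals in osteoclast precursors. Extracellular vesicles expose both phospholipids and sialylated glycans.

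In all 16 libraries Cd300lb was the most abundant of the 7 mRNAs per length, at 73.3 to 101 RPKM (median 85.9). Cd300ld followed with 18.6 to 62.0 RPKM (median 46.5) and Cd300a with 16.4 to 29.2 RPKM (median 21.9). Cd33 spanned the widest range, 0.914 to 65.5 RPKM (median 9.36). Siglece lay between 1.77 and 7.81 RPKM (median 3.65), Siglec1 between 0.252 and 6.95 RPKM (median 2.24) and Cd300lf between 0.185 and 2.33 RPKM (median 0.796). Cd300lf reached 1 RPKM in 5 libraries only, and its lowest value corresponds to an estimated 19.1 reads, against 939 reads for the lowest value of Cd300ld. In GRCm38.p6, Cd300a, Cd300lb, Cd300ld and Cd300lf lie together on chromosome 11, Cd33 and Siglece on chromosome 7 and Siglec1 on chromosome 2. CD300 genes are similar to one another. Of the 50-base stretches of Cd300ld, 3.89% also occur in a transcript of another gene, most of them in Cd300lf. For Cd300lf the share is 2.29%, for Cd300a 3.18%, for Siglec1 1.32%, for Cd33 0.394%, and for Cd300lb and Siglece 0%. How reads shared by several genes were assigned is not given in the sources used here.

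**Figure D1:**
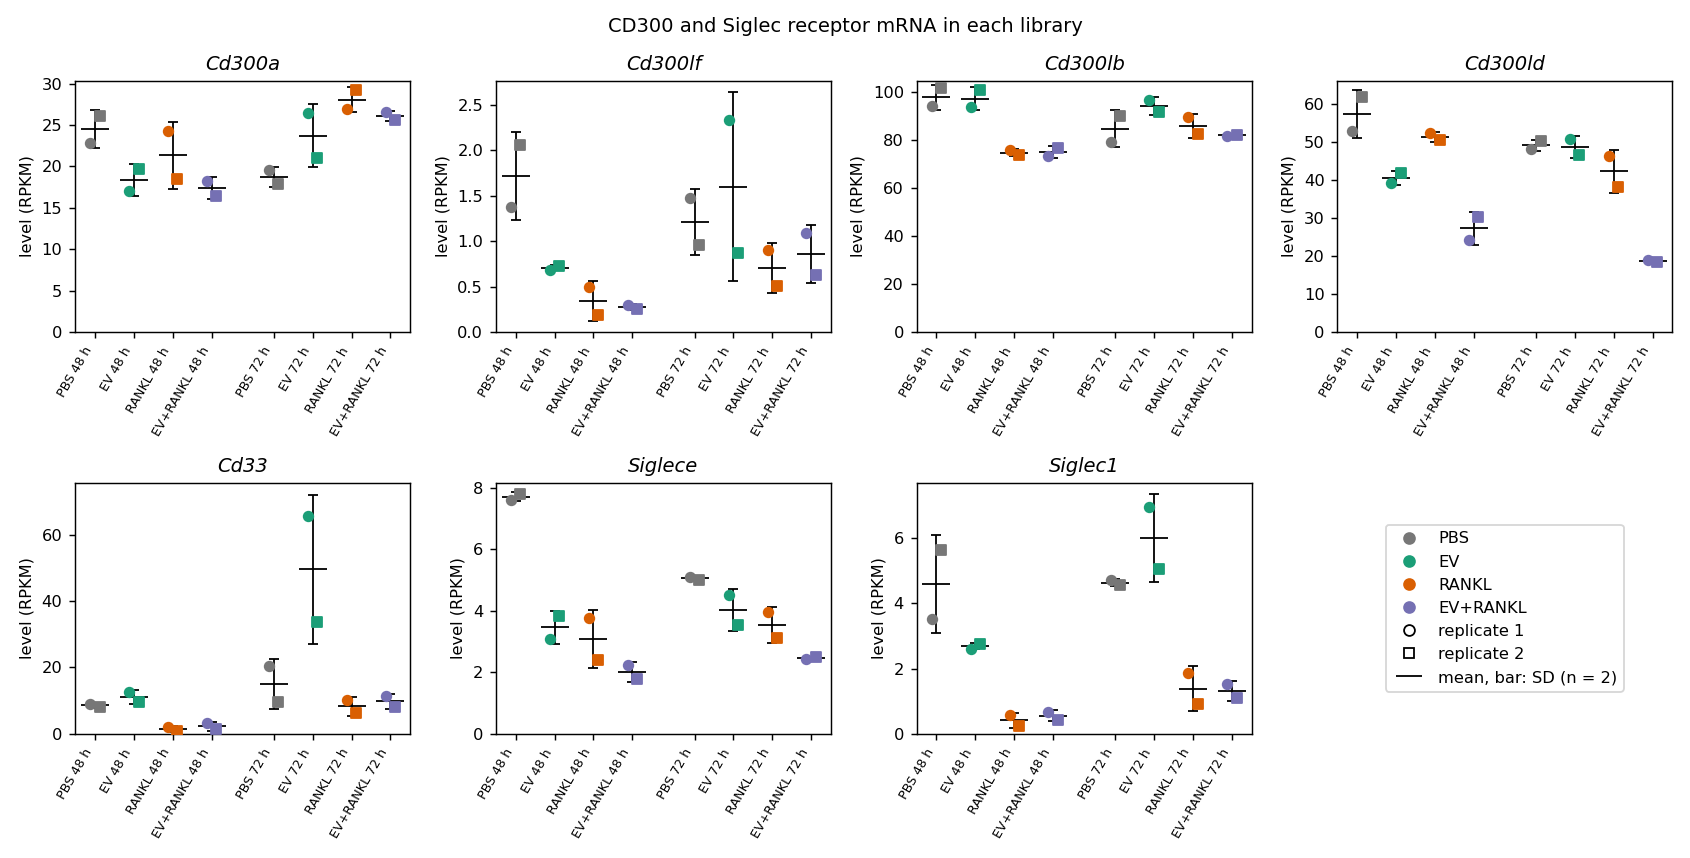
Level (RPKM, linear axis from 0) of each of the 7 receptors in each of the 16 libraries, with circles for replicate 1, squares for replicate 2 and the mean with the SD (n = 2). Cd300ld stands lowest in both EV+RANKL groups (18.6 to 30.4 RPKM against 38.3 RPKM or more in every other library), and Cd33 highest in EV at 72 h (33.7 and 65.5 RPKM).

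The bases before the start site of Cd300ld and Cd33 are shown because Cd300ld was called when vesicles were added to RANKL and Cd33 with vesicles alone at 72 h. The sequences come from RefSeq (GRCm38.p6), where 6 of the 7 members had an entry, and hold 250 bases up to a single start site per gene. The window of Cd300ld adjoins the outer end of the gene. That of Cd33 lies inside the gene's span, which reaches base 43537424. The windows of Cd300a, Cd300lf and Siglece also lie inside their genes' spans, and other start sites were not looked at. Capitals mark the PU.1 core GAGGAA on either strand, a motif of the myeloid transcription factor PU.1.
Cd300ld (chr11:114989887-114990136, minus strand): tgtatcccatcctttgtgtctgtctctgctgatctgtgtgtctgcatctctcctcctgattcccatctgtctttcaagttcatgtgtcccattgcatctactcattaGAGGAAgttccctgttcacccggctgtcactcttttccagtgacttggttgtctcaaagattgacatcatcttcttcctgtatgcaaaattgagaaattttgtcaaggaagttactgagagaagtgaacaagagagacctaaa
Cd33 (chr7:43533172-43533421, minus strand): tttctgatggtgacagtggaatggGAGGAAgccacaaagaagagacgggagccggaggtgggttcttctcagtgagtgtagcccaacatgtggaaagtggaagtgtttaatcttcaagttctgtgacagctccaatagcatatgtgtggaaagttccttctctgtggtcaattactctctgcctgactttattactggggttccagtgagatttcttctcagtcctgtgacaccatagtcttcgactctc
The PU.1 core occurred in this window of 5 of the 6 members (Cd300a, Cd300lf, Cd300ld, Cd33 and Siglece) and in 23.3% of 32851 promoters of the same length. An NFAT core (TGGAAA, either strand) occurred in 4 of the 6 members, Cd300ld and Cd33 included, and in 18.6% of all. The AP-1 motif TGANTCA (6.75% of all) and the interferon response core (GAAA, any 2 bases, GAAA, in 2.98% of all) occurred in 0 of the 6. A match is only a match of letters, and these motifs do not overlap in the sequences shown.

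Estimated depth was close across libraries, 18300000 to 20020000 reads. Of 8 macrophage markers 7 were tested, among them Csf1r (170 to 349 RPKM), Adgre1 and Ptprc. The macrophage marker Mrc1 stayed at or below 0.530 RPKM and was not tested. Markers of dendritic cells, lymphocytes, epithelial or carcinoma cells and stromal cells had 0 tested genes. Not all of them were in the table, which held 3 of 5 dendritic and 4 of 8 lymphocyte markers. It held 4 of 8 epithelial or carcinoma and 4 of 6 stromal markers, and the others could not be looked at. Of 4 granulocyte markers in the table only S100a8 was tested (at most 1.64 RPKM). Summed macrophage markers stood at 7629 and 8143 RPKM in PBS at 48 h and at 3133 and 3146 RPKM in RANKL at 48 h. Most of this fall was that of the lysozyme gene Lyz2 (mean 5764 RPKM in PBS and 1817 RPKM in RANKL). Ptprc was at 11.1 and 11.3 RPKM. Of the 7 tested macrophage markers 5 were called lower and 0 higher, where 8.29% of all tested genes were called lower and 6.47% higher. Summed osteoclast markers stood at 17.5 and 19.2 RPKM in those PBS libraries, 280 and 297 RPKM in those RANKL libraries, and 1085 and 1585 RPKM in EV+RANKL at 72 h. In bulk RNA, fewer cells of a type and less RNA per cell cannot be told apart. Their part in the receptor changes was not tested. At 72 h, 5 libraries (both EV, both EV+RANKL and RANKL replicate 2) stood together, all above or all below the other 11 in 1559 of the 10365 tested genes. The 5 were set by hand, and no other split of the libraries was counted beside it. They include all 72 h libraries with vesicles, so the count may hold effects of vesicles and time. EV against PBS at 72 h lies wholly across this division, so that in that comparison the division and the vesicles cannot be told apart. The same limit holds for every test that includes this comparison. RANKL alone at 72 h has a library on each side, so comparisons with it cross the division in part.

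Changes below are differences of log2(RPKM + 1) from 1 limma fit over all 16 libraries, with their standard errors. Adjusted p-values are Benjamini-Hochberg values over all 10365 genes, and a gene was called at an adjusted p below 0.05. On this scale changes of genes near or below 1 RPKM are understated. Comparisons against the same group share its libraries and are not independent of each other.

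With RANKL alone 5 of the 7 receptors fell at 48 h and 0 rose, where 8.29% of all tested genes were called lower and 6.47% higher (14.8% either way). The 3 Siglec genes and the CD300 genes Cd300lf and Cd300lb made up the 5. At 72 h only Siglec1 was lower and Cd300a higher, where 9.13% of tested genes were called lower and 9.73% higher (18.9% either way). The count of 5 at 48 h was 3 without PBS_48h replicate 2 and 2 without RANKL_48h replicate 2. Siglec1 and Siglece were called at 48 h in each fit that left out 1 library. When RANKL was added to vesicles, 5 receptors fell and 0 rose at 48 h (Siglec1, Cd33, Siglece, Cd300ld and Cd300lb), where 5.58% of tested genes were called lower and 3.96% higher (9.53% either way). At 72 h 4 fell and 0 rose (Siglec1, Cd33, Siglece and Cd300ld), where 12.9% were called lower and 9.05% higher (22% either way). The count of 5 was 2 without any 1 of the 4 libraries. The change of the RANKL effect from 48 h to 72 h was called by limma for 0 members, with 5 at an unadjusted p below 0.05, where 0.0289% of tested genes were called, all higher.

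Siglec1, the long adhesion receptor sialoadhesin (CD169) of macrophages, had the largest fold fall of the 7. It stood at 3.52 and 5.66 RPKM in PBS and at 0.565 and 0.252 RPKM in RANKL at 48 h, an 11.2-fold lower mean (log2 change -1.97 ± 0.22, limma adjusted p = 9.5e-05). At 72 h the values were 4.72 and 4.57 RPKM in PBS against 1.87 and 0.907 RPKM in RANKL (-1.27 ± 0.22, limma adjusted p = 0.00190). The groups did not overlap at either time. It also fell when RANKL was added to vesicles, and was at 2.62 and 2.75 RPKM in EV and 0.672 and 0.436 RPKM in EV+RANKL at 48 h (-1.25 ± 0.22, limma adjusted p = 0.00297), and at 6.95 and 5.05 against 1.53 and 1.1 RPKM at 72 h (-1.59 ± 0.22, limma adjusted p = 2.8e-04). All 4 calls were made in each fit without 1 library of the groups compared. Across the 8 groups the 4 without RANKL ranked above the 4 with it, and no library of the former fell below one of the latter.

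Siglece, the main inhibitory Siglec of mouse macrophages, fell with RANKL at 48 h from 7.6 and 7.81 RPKM to 3.75 and 2.41 RPKM (-1.11 ± 0.16, limma adjusted p = 4.4e-04). At 72 h it stood at 5.09 and 5.01 RPKM in PBS and 3.95 and 3.12 RPKM in RANKL, which did not pass (-0.42 ± 0.16, limma adjusted p = 0.0789, 0.0452 without RANKL_72h replicate 1). Siglece was the only member called with vesicles alone at 48 h, where 0.685% of tested genes were called lower and 0.608% higher (1.29% either way). The EV libraries held 3.09 and 3.84 RPKM, 2.22-fold below the PBS mean (-0.97 ± 0.16, limma adjusted p = 0.00983). That call was lost without PBS_48h replicate 1 (limma adjusted p = 0.0569), PBS_48h replicate 2 (0.0940) or EV_48h replicate 1 (0.127), and with no filter on low values (0.0569). In EV+RANKL Siglece was lower than in either single treatment at both times in every library, with 2.24 and 1.77 RPKM at 48 h and 2.42 and 2.48 RPKM at 72 h. Against EV this passed at 48 h (-0.57 ± 0.16, limma adjusted p = 0.0360) and at 72 h (-0.53 ± 0.16, limma adjusted p = 0.0261), but the call at 48 h was lost without any 1 of the 4 libraries (limma adjusted p up to 0.294). The call at 72 h was lost without EV_72h replicate 1 (limma adjusted p = 0.155), EV+RANKL_72h replicate 1 (0.117) or EV+RANKL_72h replicate 2 (0.0913), on median-centred libraries (0.0520) and in a fit of the 4 libraries alone (0.0555). With no filter on low values neither call was made (limma adjusted p = 0.108 at 48 h and 0.0707 at 72 h). Against RANKL it did not pass at 48 h (-0.43 ± 0.16, limma adjusted p = 0.378) or at 72 h (-0.39 ± 0.16, limma adjusted p = 0.184).

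Cd33 encodes a Siglec whose mouse form lacks the usual inhibitory tail motif of its human counterpart. With RANKL at 48 h it fell from 9.09 and 8.01 RPKM to 2.05 and 0.914 RPKM, a 5.77-fold lower mean (-1.98 ± 0.40, limma adjusted p = 0.00474). The call was lost without RANKL_48h replicate 2 (-1.64, limma adjusted p = 0.0609). At 72 h PBS libraries held 20.3 and 9.70 RPKM and RANKL libraries 10.3 and 6.14 RPKM, and the groups overlapped (-0.75 ± 0.40, limma adjusted p = 0.215). Vesicles alone went with the highest Cd33 of the series at 72 h, 65.5 and 33.7 RPKM, a 3.31-fold higher mean than PBS (1.67 ± 0.40, limma adjusted p = 0.0175). It was 1 of the 1083 genes called higher (10.4% of those tested, with 7.83% lower and 18.3% either way) in this comparison, which crosses the division of the 72 h libraries. The call was lost without PBS_72h replicate 2 (1.18, limma adjusted p = 0.177) or EV_72h replicate 1 (1.20, limma adjusted p = 0.134), in a fit of the 4 libraries alone (limma adjusted p = 0.115) and with no filter on low values (0.0596). At 48 h the EV libraries held 12.6 and 9.64 RPKM, above both PBS libraries, and the difference did not pass (0.33 ± 0.40, 95% interval -0.52 to 1.19, limma adjusted p = 0.895). With both agents Cd33 was far below its level with vesicles alone. It stood at 3.17 and 1.29 RPKM at 48 h (-1.96 ± 0.40 against EV, limma adjusted p = 0.00710) and at 11.4 and 8.19 RPKM at 72 h (-2.17 ± 0.40, limma adjusted p = 0.00185). The first of these calls was lost without EV_48h replicate 1 (limma adjusted p = 0.0624) or EV+RANKL_48h replicate 2 (0.0836), and the second was made in each fit without 1 library.

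Among the inhibitory CD300 genes, Cd300lf, which is known as a brake on osteoclast formation and as a receptor for phosphatidylserine, fell with RANKL at 48 h. Its values were 1.37 and 2.06 RPKM in PBS and 0.496 and 0.185 RPKM in RANKL (-1.02 ± 0.24, limma adjusted p = 0.0134). The call was lost without PBS_48h replicate 2 (limma adjusted p = 0.127) or RANKL_48h replicate 2 (0.122) and with no filter on low values (0.0510), and it rests on few reads. With EV at 48 h the values were 0.686 and 0.725 RPKM, below both PBS libraries, and did not pass (-0.66 ± 0.24, limma adjusted p = 0.280). At 72 h it was called in 0 of the 4 treatment comparisons. RANKL libraries (0.903 and 0.511 RPKM) lay below those of PBS (1.47 and 0.955 RPKM) without passing (-0.37 ± 0.24, limma adjusted p = 0.317), and EV libraries were at 2.33 and 0.867 RPKM.

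Cd300a, an inhibitory receptor that binds phosphatidylserine and phosphatidylethanolamine, moved within a narrow range. With RANKL at 72 h it rose from 19.6 and 17.8 to 27.0 and 29.2 RPKM, a 1.5-fold higher mean (0.56 ± 0.14, limma adjusted p = 0.0146). That comparison crosses the division of the 72 h libraries in part. This call was lost without PBS_72h replicate 2 (limma adjusted p = 0.0937) or RANKL_72h replicate 2 (0.103) and in a fit of the 4 libraries alone (0.0663). At 48 h the RANKL libraries (24.2 and 18.5 RPKM) overlapped those of PBS (22.8 and 26.1 RPKM). The difference between these RANKL effects did not pass (0.76 ± 0.20, limma adjusted p = 0.209), with 0.0289% of tested genes called. With EV the levels lay below both PBS libraries at 48 h (17 and 19.7 RPKM) and above both at 72 h (26.4 and 21.0 RPKM), and neither difference passed (limma adjusted p = 0.236 and 0.118). The change of the vesicle effect between the times did not pass either (0.72 ± 0.20, limma adjusted p = 0.155), though it did without EV_72h replicate 2 (0.87, limma adjusted p = 0.0200). The change of the vesicle effect includes EV against PBS at 72 h. It therefore cannot be told apart from the division of the 72 h libraries. For that change limma called 0 of the 7 members, with 6 at an unadjusted p below 0.05, where 0.0193% of tested genes were called, all higher. The count was 3 without EV_72h replicate 2 (Cd300a, Cd300lf and Siglece).

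Cd300lb, an activating receptor that signals through DAP12, was the steadiest of the 7, with a 1.38-fold range over the 16 libraries. It fell a little with RANKL at 48 h, from 94.0 and 101 RPKM to 75.8 and 73.7 RPKM, a 1.31-fold lower mean (-0.38 ± 0.09, limma adjusted p = 0.0137). The same step was seen between EV (93.8 and 101 RPKM) and EV+RANKL (73.3 and 76.8 RPKM) at 48 h (-0.37 ± 0.09, limma adjusted p = 0.0223). The first call was lost without PBS_48h replicate 2, RANKL_48h replicate 1 or RANKL_48h replicate 2 (limma adjusted p up to 0.128), and the second without any 1 of its 4 libraries (up to 0.208). Vesicles alone left it within 95% limits of -0.21 and 0.19 on the log2 scale at 48 h (-0.0066 ± 0.09, limma adjusted p = 0.997), a value whose sign turned without PBS_48h replicate 2 (0.048) or EV_48h replicate 1 (0.043).

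**Figure D2:**
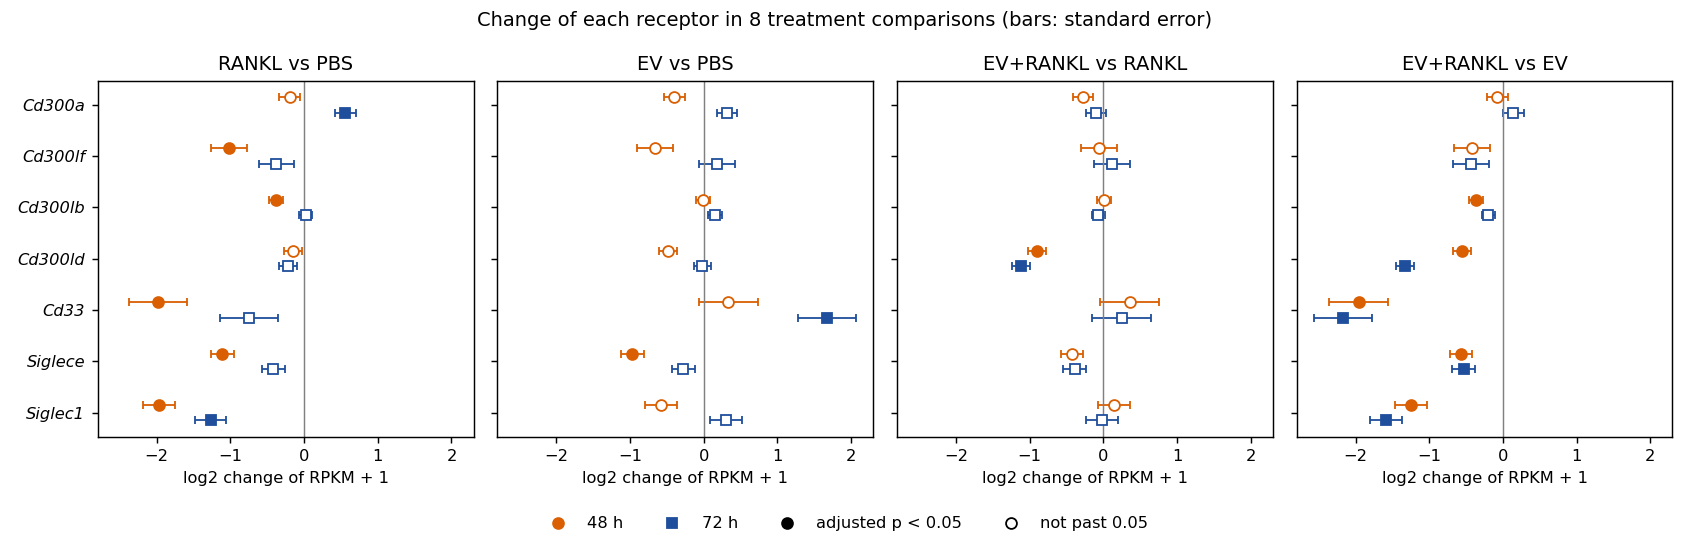
Log2 change of RPKM + 1 (x axis, with standard errors) of each receptor in 8 treatment comparisons, circles for 48 h and squares for 72 h, filled where the limma adjusted p was below 0.05. In both panels of RANKL added (RANKL vs PBS, EV+RANKL vs EV) the 3 Siglec genes are filled below 0 at 48 h, and in the panel of EV+RANKL against RANKL only Cd300ld is filled, at -0.89 (48 h) and -1.12 (72 h).

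Cd300ld, an activating receptor that couples to the Fc receptor gamma chain, was the only member called when vesicles were added to RANKL, and it was lower at both times. At 48 h it stood at 52.4 and 50.5 RPKM in RANKL and 24.3 and 30.4 RPKM in EV+RANKL, a 1.88-fold lower mean (-0.89 ± 0.12, limma adjusted p = 0.00691), where 0.164% of tested genes were called lower and 0.27% higher (0.434% either way). At 72 h it stood at 46.4 and 38.3 RPKM in RANKL and 19.0 and 18.6 RPKM in EV+RANKL, 2.25-fold lower (-1.12 ± 0.12, limma adjusted p = 0.00150), where 0.531% were called lower and 1.3% higher (1.83% either way). Every EV+RANKL library lay below all 12 libraries of the other treatments. Of the 17 genes called lower at 48 h and the 55 at 72 h, 7 were shared (41.2% and 12.7% of the lists). These 2 comparisons have no library in common, but both use the same estimate of each gene's spread and so are not independent. By p-value Cd300ld was number 10 of the 10365 genes at 48 h and number 4 at 72 h. The comparison at 72 h crosses the division of the 72 h libraries in part, as RANKL_72h replicate 2 stands with both EV+RANKL libraries. The part of that division in the fall was not tested. Without 1 library the log2 change at 72 h lay between -1.26 and -0.99. In a fit of the 4 libraries alone the call at 72 h was not made (limma adjusted p = 0.0580). The call at 48 h was lost without RANKL_48h replicate 1 (limma adjusted p = 0.0925), RANKL_48h replicate 2 (0.0588) or EV+RANKL_48h replicate 1 (0.119), with log2 changes between -1.05 and -0.74. Between these groups at 48 h the summed macrophage markers stood at 3133 and 3146 RPKM in RANKL and 2237 and 2681 RPKM in EV+RANKL, and the osteoclast markers at 280 and 297 against 489 and 630 RPKM. Lyz2, a lysozyme gene, made up most of the fall of the macrophage sum (mean 1817 RPKM in RANKL and 1203 RPKM in EV+RANKL), while Csf1r was at 180 and 205 RPKM and Cd68 at 910 and 901 RPKM. At 72 h the macrophage sums overlapped (2468 and 3207 against 1996 and 2478 RPKM) and the osteoclast sums did not (452 and 827 against 1085 and 1585 RPKM). Of the 7 tested macrophage markers 0 were called at either time, and of the 7 tested osteoclast markers 0 were called at 48 h and 1 was higher at 72 h. The part of these shifts in the Cd300ld result was not tested.

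Neither agent alone gave a call for Cd300ld. With RANKL the differences from PBS did not pass at 48 h (-0.15, 95% interval -0.42 to 0.11, limma adjusted p = 0.441) or at 72 h (-0.22, 95% interval -0.48 to 0.04, limma adjusted p = 0.236). With vesicles at 48 h the libraries held 39.3 and 41.9 RPKM against 52.9 and 62.0 RPKM in PBS, 1.41-fold lower without passing (-0.48 ± 0.12, limma adjusted p = 0.0793), and this passed in a fit of the 4 libraries alone (0.0479). At 72 h EV (50.8 and 46.6 RPKM) and PBS (48.2 and 50.3 RPKM) overlapped (-0.02 ± 0.12, 95% interval -0.28 to 0.25, limma adjusted p = 0.935), a value that turned to 0.013 without PBS_72h replicate 2 and to 0.043 without EV_72h replicate 2. Against EV, the libraries with both agents were lower at 48 h (-0.56 ± 0.12, limma adjusted p = 0.0108) and at 72 h (-1.33 ± 0.12, limma adjusted p = 2.1e-05). The call at 48 h was lost without EV_48h replicate 2 (limma adjusted p = 0.108) or EV+RANKL_48h replicate 1 (0.150).

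Whether the vesicle effect on Cd300ld differed with and without RANKL was tested directly. At 72 h this test includes EV against PBS, so its result and the division of the 72 h libraries cannot be told apart. At 72 h the difference was -1.11 ± 0.17 (95% interval -1.48 to -0.73), the gene was number 4 of 10365 by p-value, and the limma adjusted p was 0.0672, just short of the threshold that 0.00965% of tested genes (1 gene) passed. It passed without EV_72h replicate 2 (limma adjusted p = 0.0430), RANKL_72h replicate 1 (0.0352) or RANKL_72h replicate 2 (0.0208) and with no filter on low values (0.0406). It did not pass on median-centred libraries (limma adjusted p = 0.128) or in a fit of the 8 libraries of 72 h alone (0.465). At 48 h the difference was -0.41 ± 0.17 (95% interval -0.78 to -0.04, limma adjusted p = 0.9999), where again 0.00965% of tested genes were called. At 48 h 0 of the 7 members were called by limma for this interaction and 3 had an unadjusted p below 0.05. At 72 h these counts were 0 and 2, and Cd33 was among the 2 (-1.43 ± 0.56, limma adjusted p = 0.455). Between the times the vesicle effect under RANKL on Cd300ld differed by -0.23 ± 0.17, which did not pass (limma adjusted p = 0.921). For this change of the vesicle effect under RANKL limma called 0 of the 7 members, with 0 at an unadjusted p below 0.05, where 0% of tested genes were called.

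**Figure D3:**
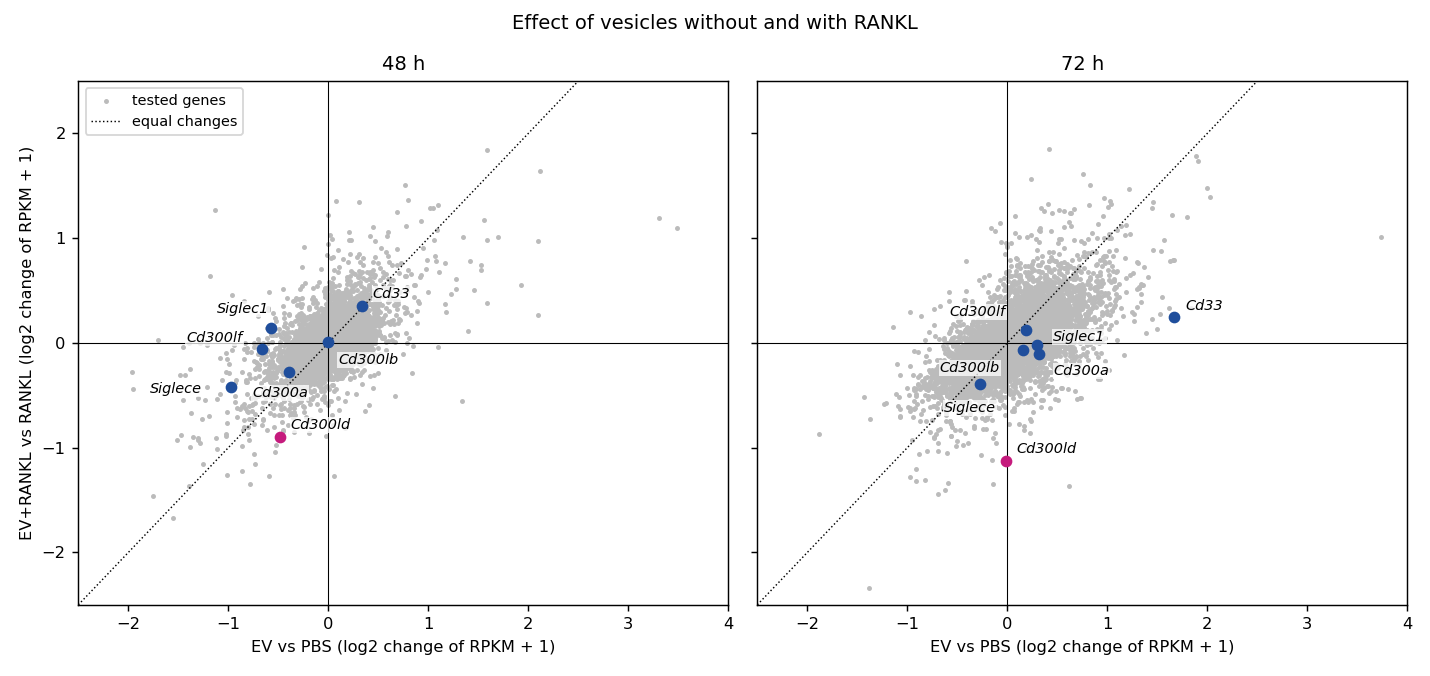
Log2 change of RPKM + 1 with vesicles without RANKL (x axis, EV vs PBS) and with RANKL (y axis, EV+RANKL vs RANKL) for all tested genes (grey) and the 7 receptors (blue, Cd300ld in magenta), at 48 h and 72 h; the dotted line marks equal changes and 3 genes lie outside the axes. At 72 h Cd300ld sits at -0.02 and -1.12, near the lower edge of the cloud, and Cd33 at 1.67 and 0.25, to its right.

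For the other 6 members vesicles added to RANKL gave no call at either time. Siglec1 stood at 0.15 ± 0.22 at 48 h (95% interval -0.32 to 0.62) and -0.02 ± 0.22 at 72 h (95% interval -0.49 to 0.45). The first value turned to -0.014 without RANKL_48h replicate 2, and the second to 0.27 without RANKL_72h replicate 1 and to 0.11 without EV+RANKL_72h replicate 2.

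From 48 h to 72 h Cd33 was called higher in each treated arm. It rose 4.46-fold with EV (log2 change 2.0 ± 0.40, limma adjusted p = 0.00505), 5.55-fold with RANKL (1.90 ± 0.40, limma adjusted p = 0.0252) and 4.39-fold with EV+RANKL (1.79 ± 0.40, limma adjusted p = 0.00486). In PBS its libraries were at 9.09 and 8.01 RPKM at 48 h and 20.3 and 9.70 RPKM at 72 h, which did not pass (0.66 ± 0.40, limma adjusted p = 0.593). The PBS mean was still 1.75-fold higher at 72 h, and the groups did not overlap. A larger rise than in PBS did not pass with EV (difference 1.34 ± 0.56, limma adjusted p = 0.223) or with RANKL (1.23 ± 0.56, limma adjusted p = 0.426). With EV 2 of the 7 members were called over time, both higher, where 17.4% of tested genes were called higher and 14.9% lower (32.3% either way). With RANKL it was 1 member, higher, where 3.45% of genes were called higher and 2.58% lower (6.03% either way). With EV+RANKL 2 members were higher and 1 lower, where 17.4% of genes were called higher and 21.5% lower (38.9% either way). In PBS limma called 0 of the 7 members, with 3 at an unadjusted p below 0.05, where 0.145% of genes were called higher and 0.502% lower (0.646% either way). The Cd33 calls were lost without EV_72h replicate 1 (limma adjusted p = 0.0568), without RANKL_48h replicate 2 (0.248) or RANKL_72h replicate 2 (0.0656), and without EV+RANKL_48h replicate 2 (0.0640) or EV+RANKL_72h replicate 1 (0.0554).

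The other calls over time were fewer. Siglec1 rose 2.24-fold with EV (0.91 ± 0.22, limma adjusted p = 0.00942), from 2.62 and 2.75 to 6.95 and 5.05 RPKM, lost without EV_48h replicate 1 (0.0541), EV_48h replicate 2 (0.0502) or EV_72h replicate 1 (0.0954). With EV+RANKL, Cd300a rose from 18.3 and 16.4 to 26.5 and 25.6 RPKM (0.56 ± 0.14, limma adjusted p = 0.00808) while Cd300ld fell from 24.3 and 30.4 to 19.0 and 18.6 RPKM (-0.51 ± 0.12, limma adjusted p = 0.00700). Without EV+RANKL_48h replicate 2 both were lost (limma adjusted p = 0.0753 and 0.0936), and Cd300a also without EV+RANKL_72h replicate 1 (0.0623). The 72 h libraries of EV and EV+RANKL are among those that stand together, so in these arms time and that division cannot be told apart.

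**Figure D4:**
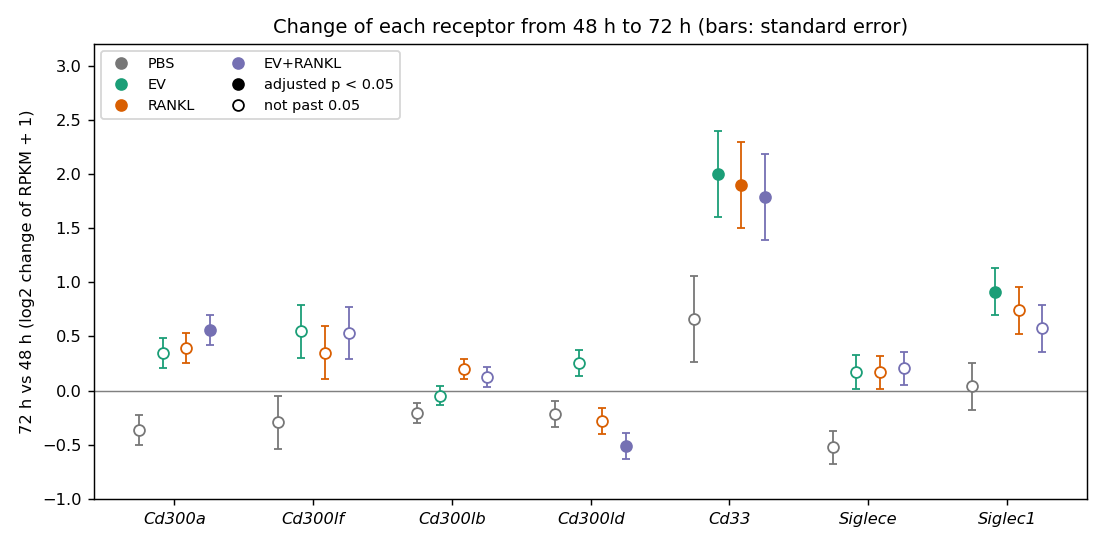
Log2 change of RPKM + 1 from 48 h to 72 h (y axis, with standard errors) of each receptor in PBS, EV, RANKL and EV+RANKL cultures, filled where the limma adjusted p was below 0.05. Cd33 is filled in the 3 treated arms, at 1.79 to 2.0, and Cd300ld is below 0 in PBS, RANKL and EV+RANKL but above 0 with EV.

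Of 17 names of other CD300 and Siglec genes looked up, not all of them separate genes, 10 were in the table and 3 were tested. Cd300e, an activating myeloid receptor, fell with RANKL at 48 h from a mean of 2.49 to 0.724 RPKM (-1.01, limma adjusted p = 7.6e-04), and Cd300lh, listed in RefSeq as an older name of Cd300ld3, from 5.01 to 1.63 RPKM (-1.22, limma adjusted p = 0.0179, lost without PBS_48h replicate 1, PBS_48h replicate 2 or RANKL_48h replicate 1). Cd300e fell with EV at 48 h as well (-0.73, limma adjusted p = 0.0372), a call lost without any 1 of the 4 libraries. Siglec15, the Siglec of osteoclasts that couples to DAP12, went the other way. It was near 0 in PBS at 72 h (mean 0.136 RPKM) and rose with RANKL at 72 h to 3.55 ± 2.36 RPKM (SD, n = 2; log2 change 1.90, limma adjusted p = 0.00104) and with EV+RANKL to 8.10 ± 1.13 RPKM (2.67 against EV, limma adjusted p = 6.7e-05). The remaining 7 genes in the table stayed below the filter.

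The partners of these receptors changed unevenly with RANKL at 48 h, where 8.29% of all tested genes were called lower and 6.47% higher. Of 12 phosphatases and kinases, 4 fell and 1 rose (median -0.19, against 0.06 over all tested genes). Of the 3 adaptors (median -0.51), only Fcer1g, the Fc receptor gamma chain, was called lower (-0.61, limma adjusted p = 0.0169). That call was lost without PBS_48h replicate 1, PBS_48h replicate 2 or RANKL_48h replicate 2. The means of Tyrobp (352 RPKM in PBS and 247 RPKM in RANKL) and Hcst (2.40 and 1.78 RPKM) were lower without a call. Other inhibitory receptors fell in 4 and rose in 1 of 11 tested (median -0.27), with Milr1 at -1.99 and Lilrb4 at -2.07. Other activating receptors fell in 7 and rose in 1 of 12 tested (median -0.87), with the Fc receptor Fcgr1 at -2.55 and the lectin Clec4d at -1.51. In the list of apoptotic-cell and phospholipid receptors, which also holds the secreted ligands Mfge8 and Gas6, 4 of 6 tested genes fell (median -0.76). The scavenger receptor Stab1 was at -1.37. Interferon-stimulated genes fell in 14 of 20 tested (median -0.68), with Dhx58 at -0.94. Of 5 sialic acid synthesis genes, 1 rose, the activating enzyme Cmas (0.52, limma adjusted p = 0.00355). Of 10 tested sialyltransferases, 1 fell, and Neu1, the only neuraminidase tested, was not called. Where a list held 1 call in a direction, nothing is read from it beside these shares over all tested genes.

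With vesicles alone at 72 h, where Cd33 rose, 2 of the 3 adaptors rose too (median 0.57, against 0.03 over all tested genes, of which 10.4% were called higher and 7.83% lower). These were Tyrobp, which encodes DAP12 (0.70, limma adjusted p = 0.0182), and Fcer1g (0.57, limma adjusted p = 0.0253). Other inhibitory receptors rose in 3 of 11 tested, with the inhibitory Fc receptor Fcgr2b at 1.53 (list median 0.15), and activating ones in 2 of 12 tested, with Fcgr4 at 1.32 (list median 0.38). Beside the share of 10.4% over all tested genes, nothing about the lists is read from counts this small. The calls of Tyrobp, Fcer1g, Fcgr2b and Fcgr4 were each lost without PBS_72h replicate 2 or EV_72h replicate 1. When vesicles were added to RANKL, where Cd300ld fell, 0 of the 3 adaptors and 0 of 11 other inhibitory receptors were called at either time. Of 12 tested activating receptors, 0 were called at 48 h and 1 was lower at 72 h. Of 20 tested interferon-stimulated genes, 0 were called at 48 h (median -0.37, against 0.0022 over all tested genes) and 8 were lower at 72 h (median -0.64, against -0.02). The sialyltransferase gene St6galnac4 rose at both times (0.81 at 48 h, limma adjusted p = 0.0226, and 0.73 at 72 h, limma adjusted p = 0.0230). Its call at 48 h was lost without any 1 of the 4 libraries, and that at 72 h without RANKL_72h replicate 1, EV+RANKL_72h replicate 1 or EV+RANKL_72h replicate 2.

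The members did not share 1 pattern over the 16 libraries. Pearson's r of log2(RPKM + 1), a description over libraries that share their groups, was 0.880 between Siglec1 and Cd300lf and 0.853 between Siglec1 and Cd33, but 0.160 between Cd300ld and Cd33 and -0.03 between Cd300ld and Cd300a. The genes closest to Cd300ld were Carhsp1 (r = 0.913), Ugt1a7c (0.911) and Lca5 (0.910). Both Carhsp1 and Ugt1a7c were among the 7 genes lower at both times when vesicles were added to RANKL. The same RANKL and EV+RANKL libraries enter r and that list, so this is not a separate observation. Closest to Cd33 were Snx24 (0.970), the lipoxygenase gene Alox5 (0.968) and Acox3 (0.959). Closest to Siglec1 were Icosl (0.983), Rnase4 (0.981) and the interleukin-10 receptor gene Il10ra (0.976), and closest to Siglece Tmem106a (0.951), Aif1 (0.941) and Tmem176b (0.941). Cd300lf was closest to Tpd52 (0.951), the cathepsin gene Ctss (0.933) and P2rx4 (0.929). Likeness was lower for Cd300lb, with Neurl3 (0.915), Rassf4 (0.890) and Slc44a1 (0.888), and for Cd300a, with Lrrc25 (0.864), Vwa5a (0.860) and Itm2b (0.851).

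The order of the group means places these patterns side by side. For Cd300ld the order was PBS 48 h (57.4 ± 6.42 RPKM, SD), RANKL 48 h (51.4 ± 1.35), PBS 72 h (49.3 ± 1.46), EV 72 h (48.7 ± 2.93), RANKL 72 h (42.3 ± 5.75), EV 48 h (40.6 ± 1.84), EV+RANKL 48 h (27.4 ± 4.31) and EV+RANKL 72 h (18.8 ± 0.312). Libraries of neighbours overlapped between PBS and EV at 72 h and between RANKL 72 h and EV 48 h. For Cd33 the order was EV 72 h (49.6 ± 22.4 RPKM, SD), PBS 72 h (15 ± 7.47), EV 48 h (11.1 ± 2.08), EV+RANKL 72 h (9.78 ± 2.25), PBS 48 h (8.55 ± 0.757), RANKL 72 h (8.23 ± 2.96), EV+RANKL 48 h (2.23 ± 1.33) and RANKL 48 h (1.48 ± 0.803). Here only EV 72 h at the top, and RANKL 72 h against EV+RANKL 48 h, were separate from the next group. For Siglec1 the highest groups were EV 72 h (6.0 ± 1.35 RPKM, SD) and PBS 72 h (4.64 ± 0.106), and the lowest RANKL 48 h (0.408 ± 0.221). Siglece was highest in PBS 48 h (7.71 ± 0.146 RPKM, SD) and PBS 72 h (5.05 ± 0.0586), each separate from the next group, and lowest in EV+RANKL 48 h (2.01 ± 0.338). Among Cd300lb, Cd300a and Cd300lf few neighbours were separate (1 pair each for Cd300a and Cd300lf, 2 pairs for Cd300lb), with PBS 48 h highest for Cd300lb (97.7 ± 5.30 RPKM, SD) and Cd300lf (1.72 ± 0.487) and RANKL 72 h highest for Cd300a (28.1 ± 1.55).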

How the data were processed

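Messenger RNA of RAW264.7 cells was measured in 16 libraries, 2 for each of 8 groups. The labels' protocols name TruSeq mRNA libraries. FastQC, HISAT2 and Partek are named with the builds GRCh38 and hg38, per the submitters' processing notes. A mouse build, its gene models and the assignment of reads were not given in the sources used here. The deposited values are on a log2 scale and were read as log2(RPKM + 1), a unit that no source states. In 1928 single-exon genes, base 2 made a median of 82.7% of low values whole reads (within 0.05), against 64.0% for base e and 31.7% for base 10. The column of EV+RANKL_48h replicate 2 lacked the letter for RANKL and was placed by the plus sign in its name.

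limma 3.58.1 in R 4.3.3, with a variance trend, fitted 8 group means to 10365 genes (1 RPKM or more in 2 libraries). It was tested on simulated data. Read numbers are estimates from RPKM, GENCODE M21 exon lengths and estimated depth. Members, lists and comparisons were chosen with earlier results of these data known. The comparisons of effects between the times were added after the values were seen. Every member is described, with up to 3 genes of each list by smallest adjusted p and the 3 named genes of highest Pearson's r per member. Single-gene alternatives were recomputed for values with an unadjusted p below 0.05 and others printed.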

Additional observations from a re-analysis of the deposited data

How the results depend on the processing

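Of the single-gene results recomputed, 600 of 642 alternative values kept their direction and side of the threshold, 33 lost a call, 9 gained one and 0 turned; without 1 library these counts were 352, 71, 10 and 7 of 440. These totals include results that were not called as reported and so could not lose a call. Results per setting are given as the number of the 7 receptors called. With a pseudocount of 0.1, 2 were called for 72 h against 48 h in RANKL (1 as reported) and 5 in EV+RANKL (3 as reported). With no filter, 0 were called for EV against PBS at 48 h and at 72 h (1 each as reported), 1 for the interaction at 72 h (0 as reported) and 0 over time in RANKL. In fits of the compared groups alone, 2 were called for EV against PBS at 48 h, 1 for RANKL against PBS at 72 h (2 as reported), 0 for EV against PBS and 0 for EV+RANKL against RANKL at 72 h, and over time 0 in RANKL and 5 in EV+RANKL. The filter at 5 RPKM left Cd300lf without a value, and that filter, median centring and the fit without a variance trend moved no count by over 1.5 times. Some settings also differ in the number of libraries or of genes in the fit, and the cause of these changes was not tested.

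Leaving out 1 library gave 2 to 5 calls for RANKL against PBS at 48 h and 1 to 3 at 72 h, 0 to 1 for EV against PBS at 48 h and 0 to 2 at 72 h, 0 to 1 for EV+RANKL against RANKL at 48 h, 2 in each fit for EV+RANKL against EV at 48 h, 0 to 1 for the interaction at 72 h, and over time 0 to 4 in EV, 0 to 1 in RANKL and 0 to 3 in EV+RANKL. The change of the EV effect between the times had 0 to 3. Values whose sign turned in such fits ranged from -0.061 to 0.048 for Cd300lb (EV against PBS at 48 h), -0.077 to 0.043 for Cd300ld (EV against PBS at 72 h), and for Siglec1 with EV added to RANKL from -0.014 to 0.31 at 48 h and -0.32 to 0.27 at 72 h.

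Groups share replicate numbers, but nothing says that a number marks a shared culture or day. The difference of replicate 1 and 2 correlated between groups at r = -0.04 to 0.53 over 21 pairs of groups, 11 of them over 0.1. Cd33 was higher in replicate 1 in 7 of the 7 groups with numbered columns. With the replicate number as a block, without the unnumbered library, 3 receptors were called for EV+RANKL against EV at 48 h (5 as reported), 1 for the interaction at 72 h (Cd300ld, limma adjusted p = 0.04995) and 1 over time in EV+RANKL. Cd33 then passed for RANKL against PBS at 72 h (limma adjusted p = 0.0138). At the estimated depth, Cd300lf (19.1 to 232 estimated reads) and Siglec1 (36.0 to 962) limit what can be told apart.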
